A study of Rattus norvegicus with 4 samples.

Results

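The ATP-binding cassette (ABC) transporters are described here in neonatal rat cardiomyocytes that were made to overexpress atrogin-1. Members were all genes in the annotation of the array whose symbol is Abc followed by a subfamily letter from a to g and a number, and no measured value was used to choose them. The rule found 40 genes on 52 probe sets, out of 14217 genes and 31042 probe sets on the array. Of the 40 genes, 37 had at least 1 probe set of their own. The other 3 (Abcb1b, Abcg3l2 and Abcg3l4) were measured only by probe sets that they share with a close relative. The 37 genes fall into subfamilies A (8 genes), B (7), C (9), D (3), E (1), F (3) and G (6), and Abcc4, a member of subfamily C, was set against the other 36.

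The cells were heart muscle cells isolated from Sprague-Dawley rats at 1- to 2-days old, grown first with serum and then without it during infection. In the Ad-atrogin-1 group (2 arrays) they carried an adenovirus for atrogin-1 together with green fluorescent protein (GFP) for 24 h, and in the Ad-GFP group (2 arrays) an adenovirus for GFP alone over the same time. All 4 cultures were thus infected and expressed GFP, and none was uninfected. Arrays of 1 group are labelled as biological replicates, while the methods mention more independent experiments than the 2 arrays of a group, so p-values measure only the spread between these arrays. Each value is a log2 signal of a probe set on an Affymetrix rat genome array, and a difference of 1 on this scale is a 2-fold difference.

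ABC transporters use ATP to move substrates across membranes, and the family includes exporters of drugs, conjugates and cyclic nucleotides as well as lipid transporters. Not every member is a pump: SUR1 and SUR2 are regulatory subunits of ATP-sensitive potassium channels, which link the electrical activity of heart cells to their energy state, and the E and F subfamilies lack a membrane part and act on ribosomes. Abcc4 encodes MRP4, which exports cyclic AMP, cyclic GMP and prostaglandins, and in heart muscle it is known for limiting cyclic nucleotide levels.

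Fbxo32, the gene of atrogin-1, checked the labels: its log2 signal was 13.55 and 13.47 on the Ad-atrogin-1 arrays, against 5.24 and 5.04 on the Ad-GFP arrays (331-fold, adjusted p = 3.51e-05, limma). All 9 measured cardiomyocyte markers were bright on every array, between 8.69 (Ryr2) and 13.69 (Nppa), where the upper quartile of an array lies between 7.27 and 7.32. The collagen gene Col1a1, a fibroblast marker, was also bright (11.17 and 11.61 on the Ad-atrogin-1 arrays, 10.84 and 11.50 on the Ad-GFP arrays), while Thy1 of the same list was at 5.34 and 5.78 in Ad-atrogin-1 and 5.50 and 5.69 in Ad-GFP. The lower quartile of an array lies between 3.88 and 3.94, and a fold change of a probe set below it is not an exact size. Of the 47 genes in 6 lists of cell type markers, limma called 0 in either direction. At an unadjusted p under 0.05 there were 5, where 13.4% of all genes reached that level. The furthest apart were Krt19, an epithelial keratin (7.89 and 8.09 in Ad-atrogin-1, 3.20 and 5.48 in Ad-GFP, adjusted p = 0.107), and Rgs5, a pericyte gene (7.22 and 7.64 in Ad-atrogin-1, 6.34 and 6.57 in Ad-GFP, adjusted p = 0.102), and their part in the results below was not tested. The study also lists Krt19 among its changed genes, and 5 of the 7 epithelial and mesothelial markers were below 0, with Krt18 at -0.83 (adjusted p = 0.332) and Epcam and Cdh1 under the lower quartile on all 4 arrays.

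Across the family, Abcc4 was the 1 gene of 37 that rose and 0 fell, where a call takes an adjusted p under 0.05 together with a 2-fold difference. Among all genes, 0.457% passed in the upward and 0.0563% in the downward direction. The same thresholds on probe sets gave 1 higher and 0 lower among the 52, where 0.248% and 0.0258% of all probe sets passed. The methods name no test for the arrays beyond a comparison of 2 means, and an equal-variance test of that kind, called the methods' t-test here, gave 1 gene higher and 0 lower at an unadjusted p under 0.05 and 2-fold, and 0 in either direction after adjustment. At an unadjusted p under 0.05 there were 6 genes, 2 higher (Abcc4 and Abcb8) and 4 lower (Abcc5, Abcb4, Abca7 and Abcg3l1), where 13.4% of all genes reached that level (6.83% higher and 6.52% lower). The family median was -0.085 on the log2 scale, against -0.0028 for all genes, with 14 members above 0 and 23 below (49.2% of all genes were above 0). In 16 of 37 genes the arrays of the groups did not overlap (4 higher and 12 lower). Among all genes 43% did not overlap, 20.7% higher and 22.3% lower.

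Abcc4 stood at 7.86 and 7.89 on the Ad-atrogin-1 arrays and at 6.11 and 6.41 on the Ad-GFP arrays, on its only probe set. Both Ad-atrogin-1 arrays lie well above both Ad-GFP arrays, and they differ from each other by less than the Ad-GFP arrays do. The mean log2 signal was 7.87 ± 0.021 in Ad-atrogin-1 and 6.26 ± 0.21 in Ad-GFP (SD, n = 2 each). The log2 fold change was 1.61 (SE 0.14, 95% interval 1.26 to 1.96), a rise of 3.06-fold, with an adjusted p of 0.0248 over all genes in limma. The study lists this gene among its changed genes from the same arrays, so the value is not independent of that list. In bulk RNA, more RNA per cell and more of the cells that express a gene cannot be told apart. With only 4 arrays the call is fragile: it was lost when any 1 array was left out (adjusted p between 0.273 and 0.449, with the log2 fold change between 1.47 and 1.76) and with the methods' t-test after adjustment (adjusted p = 0.422).

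**Figure D1:**
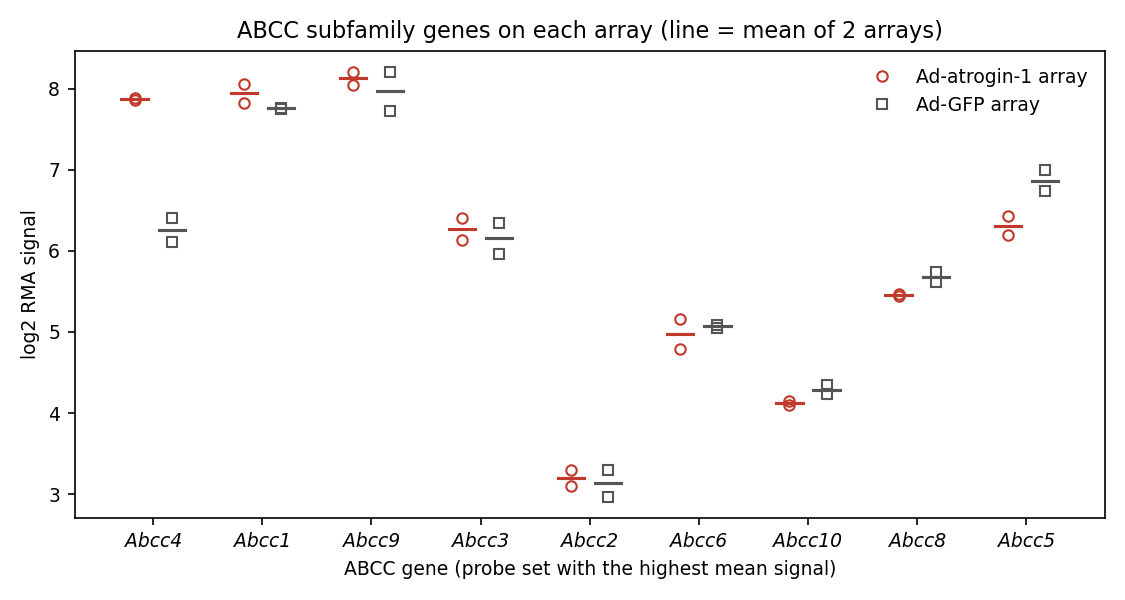
Log2 signal (vertical axis) of the 9 genes of subfamily C on each array, with Ad-atrogin-1 arrays as red circles left of Ad-GFP arrays as grey squares and lines at the mean of 2 arrays. Abcc4 is the gene whose groups lie furthest apart (7.86 and 7.89 in Ad-atrogin-1, 6.11 and 6.41 in Ad-GFP), and levels of different genes are not comparable because each probe set binds with its own strength.

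The closest relatives of Abcc4 by function are the other exporters of conjugates and anions. Abcc1 encodes MRP1, which exports glutathione conjugates and leukotriene C4, and its log2 signal was 7.82 and 8.06 in Ad-atrogin-1 and 7.75 and 7.76 in Ad-GFP. The groups do not overlap, but the fold change is small (0.19 on the log2 scale, 95% interval -0.14 to 0.51, adjusted p = 0.616 in limma). Abcc3, an exporter of bile acids and glucuronides, gave 6.40 and 6.13 in Ad-atrogin-1 and 5.96 and 6.35 in Ad-GFP, with overlapping groups. Abcc2, the MRP2 export pump of bile canaliculi, was below the lower quartile on all 4 arrays, at 3.10 and 3.30 in Ad-atrogin-1 and 3.30 and 2.97 in Ad-GFP. Abcc6, a liver protein needed for release of ATP that keeps soft tissue from calcifying, overlapped between groups (4.80 and 5.16 in Ad-atrogin-1, 5.09 and 5.05 in Ad-GFP). Abcc10, or MRP7, gave 4.10 and 4.15 in Ad-atrogin-1 and 4.34 and 4.23 in Ad-GFP, a log2 difference of -0.16 (adjusted p = 0.618, limma).

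The DNA in front of Abcc4 was compared with that of Abcc1 because Abcc4 was called and Abcc1 was not. Sequences are from RefSeq on build GRCr8, and 33 of the 40 members had an entry. The 250 bases before each annotated start were searched on both strands for GC boxes (GGGCGG), which bind the Sp1 family and are printed in capitals, with 12 bases on each side. The annotated start of Abcc4 is followed at once by atg, and the gene's span in the annotation reaches further upstream, so this stretch can lie inside a longer transcript.
Abcc4, chr15:102181488-102181517, minus strand: gaggcggggtctGGGCGGgctggcgctggg
Abcc1, chr10:1162383-1162437, minus strand: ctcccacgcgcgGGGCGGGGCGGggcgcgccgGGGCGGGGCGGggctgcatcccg
Abcc4 has 1 GC box and Abcc1 has 4, of which neighbouring boxes share a base. A GC box was found in front of 24 of 33 members (72.7%), against 30.5% of all 33469 promoters, and the members' promoters also had more G and C (median 58.8%, all promoters 51.2%). The 33469 promoters belong to 27457 genes, so some genes enter more than once, while each of the 33 members has 1 promoter. The shares are thus of unlike sets. The windows of Abcc4 and Abcc1 held 77.6% and 72.8% G and C. The ER stress elements ERSE and ERSE-II were found in 0 of 33 members, against 0.0657% and 0.0418% of all promoters, and the unfolded protein response core TGACGTGG in 0 of 33, against 0.52%. The LXR direct repeat was found in 0 of 33 members, against 0.00299%, the TCF/LEF site CTTTGAT in Abca8 and Abcc2, against 3.15%, and the E-box CACGTG in Abca1 and Abcb6, against 5.59%. A match to such letters is a description and not a binding site.

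Abcc5 encodes MRP5, which like MRP4 can export cyclic nucleotides, and its values ran opposite to those of Abcc4. On its brighter probe set it gave 6.19 and 6.43 in Ad-atrogin-1 and 6.99 and 6.74 in Ad-GFP. Both Ad-atrogin-1 arrays are below both Ad-GFP arrays, but the log2 fold change of -0.56 (SE 0.15, 95% interval -0.94 to -0.18) did not pass (adjusted p = 0.225, limma). Its dimmer probe set did not show this: 4.74 and 5.33 in Ad-atrogin-1 and 5.22 and 5.00 in Ad-GFP overlap, at a log2 fold change of -0.075.

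Abcc8 and Abcc9 encode SUR1 and SUR2, the subunits of ATP-sensitive potassium channels that bind sulfonylurea drugs. Abcc9, the form of ventricular muscle, was measured by 3 probe sets. The brightest gave 8.20 and 8.05 in Ad-atrogin-1 and 7.73 and 8.20 in Ad-GFP, with overlapping groups. The second gave 7.15 and 7.20 in Ad-atrogin-1 and 6.76 and 7.13 in Ad-GFP, and the third 5.90 and 5.96 in Ad-atrogin-1 and 5.37 and 5.75 in Ad-GFP. On these dimmer probe sets both Ad-atrogin-1 arrays were above both Ad-GFP arrays, and the 3 log2 fold changes (0.16, 0.23 and 0.37) share a sign without passing the test (adjusted p between 0.479 and 0.826 over all probe sets). Abcc8 gave 5.46 and 5.44 in Ad-atrogin-1 and 5.61 and 5.73 in Ad-GFP, a log2 fold change of -0.22 (adjusted p = 0.499). The channel pores these subunits join are Kcnj8 and Kcnj11. Kcnj8 gave 6.44 and 6.90 in Ad-atrogin-1 and 5.84 and 6.28 in Ad-GFP, a log2 fold change of 0.61 that did not pass (adjusted p = 0.328), and Kcnj11 gave 7.11 and 6.24 in Ad-atrogin-1 and 7.03 and 6.55 in Ad-GFP, with overlapping groups.

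To set Abcc4 directly against its relatives, the log2 signal of each of the 36 other genes was subtracted from that of Abcc4 on the same array, and the group means of these differences were compared. The strength of a probe set cancels in this comparison. For Abcc1 the within-array difference was 0.035 and -0.17 in Ad-atrogin-1 and -1.63 and -1.36 in Ad-GFP, so that the change of Abcc4 exceeded that of Abcc1 by 1.43 on the log2 scale (SE 0.17). For Abcc5 the within-array difference was 1.67 and 1.46 in Ad-atrogin-1 and -0.88 and -0.34 in Ad-GFP, an excess of 2.17 (SE 0.29). With each gene on its brightest probe set, the excess over the 8 other genes of subfamily C lay between 1.43 and 2.17. Over all 36 genes it lay between 1.33 (Abcb8) and 2.23 (Abcb4), with a median of 1.70. Other probe sets would move these limits: the dimmest of Abcc9 had a log2 fold change of 0.37 and the dimmer of Abcc5 of -0.075. Abcc4 was singled out with its rise on these arrays already known, so the outcome was close to fixed and is only a description. In all 36 comparisons both Ad-atrogin-1 arrays were above both Ad-GFP arrays. The exact two-sided permutation p was 0.333 in each, which is the smallest that 2 arrays against 2 can give, and Abcc4 enters every comparison, so the 36 are not independent. Without Ad-atrogin-1 replicate 2 the smallest excess was 0.97.

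**Figure D2:**
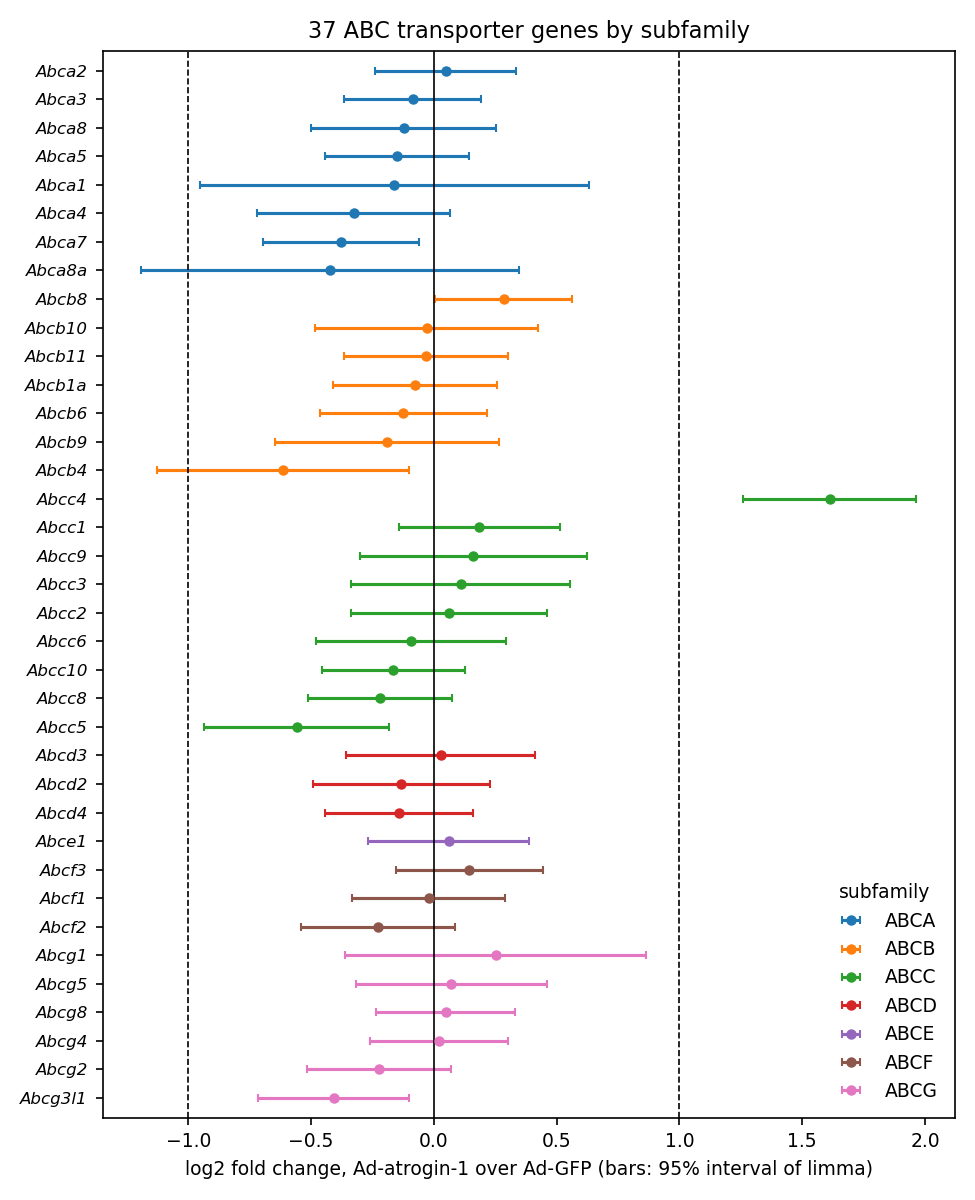
Log2 fold change (horizontal axis, positive where Ad-atrogin-1 is higher than Ad-GFP) of the 37 genes with a probe set of their own, coloured by subfamily, with 95% intervals of the limma fit and dashed lines at a 2-fold change either way. The interval of Abcc4 (1.26 to 1.96) lies wholly beyond 2-fold, and the other 36 estimates lie between -0.61 and 0.29.

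The estimates of the other 36 genes lay between -0.61 and 0.29 on the log2 scale. Across all 14217 genes, the 95% interval stayed inside a 2-fold change either way for 13165. It did so for 34 of the 37 members, a share close to that of all genes. The exceptions are Abcc4 and the wide intervals of Abca8a and Abcb4. Precision therefore differs between members, and a result that did not pass does not show that a gene was unchanged.

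Subfamily B holds both plasma membrane pumps and transporters of the inner mitochondrial membrane. Abcb4, which moves phosphatidylcholine into bile in liver, had the largest downward difference of the family, with 5.80 and 5.95 in Ad-atrogin-1 and 6.21 and 6.77 in Ad-GFP. The groups do not overlap, and the log2 fold change of -0.61 (SE 0.21, 1.53-fold lower) did not pass (adjusted p = 0.297, limma). Its neighbours on chromosome 4 are Abcb1a and Abcb1b, which encode the rodent forms of the drug pump P-glycoprotein. The probe set that Abcb1a and Abcb1b share gave 6.72 and 6.55 in Ad-atrogin-1 and 7.01 and 7.28 in Ad-GFP, a log2 fold change of -0.51 (SE 0.15, adjusted p = 0.296 over all probe sets). The probe sets of Abcb1a alone were under the lower quartile on all 4 arrays, between 2.37 and 3.19, and the shared probe set cannot say which of the pair it measured. Abcb6, a porphyrin transporter, gave 7.30 and 7.08 in Ad-atrogin-1 and 7.38 and 7.24 in Ad-GFP, with overlapping groups.

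Abcb8, a transporter of the inner mitochondrial membrane that in mouse heart is needed for iron export from mitochondria, was singled out after its values were seen. It gave 7.11 and 7.13 in Ad-atrogin-1 and 6.85 and 6.82 in Ad-GFP, the largest upward difference at gene level after Abcc4 (0.29 on the log2 scale, SE 0.11, adjusted p = 0.366). Abcb10, needed for heme synthesis in mouse red cell precursors, was also chosen in this way because its probe sets differ: the brighter gave 6.88 and 6.68 in Ad-atrogin-1 and 7.03 and 6.58 in Ad-GFP, with overlap. The dimmer gave 5.41 and 5.39 in Ad-atrogin-1 and 5.74 and 5.75 in Ad-GFP, without overlap, at a log2 fold change of -0.35 (adjusted p = 0.341 over all probe sets).

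In subfamily A, the lipid transporters, 7 of 8 genes had a log2 fold change below 0 on their brightest probe set, where 49.2% of all genes were above 0, and none was called. This count depends on the probe set: the other 3 of Abca1 were at 0.079, 0.031 and 0.020, and the second of Abca8 was at 0.17. Abca5 gave 6.75 and 6.84 in Ad-atrogin-1 and 6.90 and 6.99 in Ad-GFP, and Abca8a gave 4.05 and 3.32 in Ad-atrogin-1 and 3.78 and 4.43 in Ad-GFP, with overlap and a log2 fold change of -0.42 (adjusted p = 0.627). Abca7, a phospholipid transporter chosen after its values were seen, gave 5.01 and 5.22 in Ad-atrogin-1 and 5.50 and 5.48 in Ad-GFP, without overlap, at -0.38 on the log2 scale (adjusted p = 0.297).

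The sterol exporters Abca1 and Abcg1 differed more within the Ad-atrogin-1 group than between the groups, and Abca1 was singled out after its values were seen. Abca1 loads cholesterol onto apolipoprotein A-I and Abcg1 onto high-density lipoprotein, and both are classic targets of the sterol receptors LXR. The brightest of the 4 Abca1 probe sets gave 6.57 and 5.69 in Ad-atrogin-1 and 6.04 and 6.54 in Ad-GFP. The dimmest gave 4.74 and 3.69 in Ad-atrogin-1 and 4.01 and 4.38 in Ad-GFP. On all 4 probe sets Ad-atrogin-1 replicate 1 exceeded replicate 2, by 0.87 to 1.33 on the log2 scale, with the Ad-GFP arrays between -0.49 and -0.094 apart. The brightest of the 3 Abcg1 probe sets gave 8.29 and 7.55 in Ad-atrogin-1 and 7.66 and 7.67 in Ad-GFP, and over the 3 probe sets replicate 1 exceeded replicate 2 of Ad-atrogin-1 by 0.40 to 0.85. Probe sets that differed at least 2-fold between the Ad-atrogin-1 arrays made up 0.493% of all probe sets, and 3 of the 4 Abca1 probe sets exceeded that difference. The group difference passed for neither gene (adjusted p = 0.881 for Abca1 and 0.728 for Abcg1, limma).

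Several macrophage genes, and genes of other cell types, also had a higher signal in replicate 1 of the Ad-atrogin-1 arrays. Adgre1, a macrophage surface antigen, gave 6.19 and 3.67 in Ad-atrogin-1 and 4.09 and 5.04 in Ad-GFP. Cd14, a receptor for bacterial endotoxin, gave 7.40 and 5.58 in Ad-atrogin-1 and 6.35 and 6.77 in Ad-GFP, and Cd68, a lysosomal protein, gave 6.62 and 5.08 in Ad-atrogin-1 and 6.03 and 6.15 in Ad-GFP. Other markers of the list split less or not at all: Cd163 was at 2.84 on both Ad-atrogin-1 arrays and at 2.72 and 2.76 in Ad-GFP, below the lower quartile, and Ptprc gave 4.76 and 4.51 in Ad-atrogin-1 and 4.63 and 4.47 in Ad-GFP. The summed linear signal of the 8 markers was 555 and 221 in Ad-atrogin-1 and 328 and 360.1 in Ad-GFP, and limma called 0 of the 8, also with 0 at an unadjusted p under 0.05. The endothelial markers ran the other way within the group, at 529.7 and 984 in Ad-atrogin-1 and 515 and 726 in Ad-GFP over 7 markers. All 9 cardiomyocyte markers were higher in Ad-atrogin-1 replicate 1 than in replicate 2, by 0.20 (Nppa) to 0.95 (Myh6) on the log2 scale, with a summed signal of 52798 and 42115 in Ad-atrogin-1 and 42949 and 46389 in Ad-GFP. The fibroblast genes were mixed, with Pdgfra at 7.97 and 6.96 in Ad-atrogin-1 and 6.95 and 8.14 in Ad-GFP, and Col1a1 lower in replicate 1 of both groups. The part of any of these lists in the Abca1 and Abcg1 values was not tested.

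**Figure D3:**
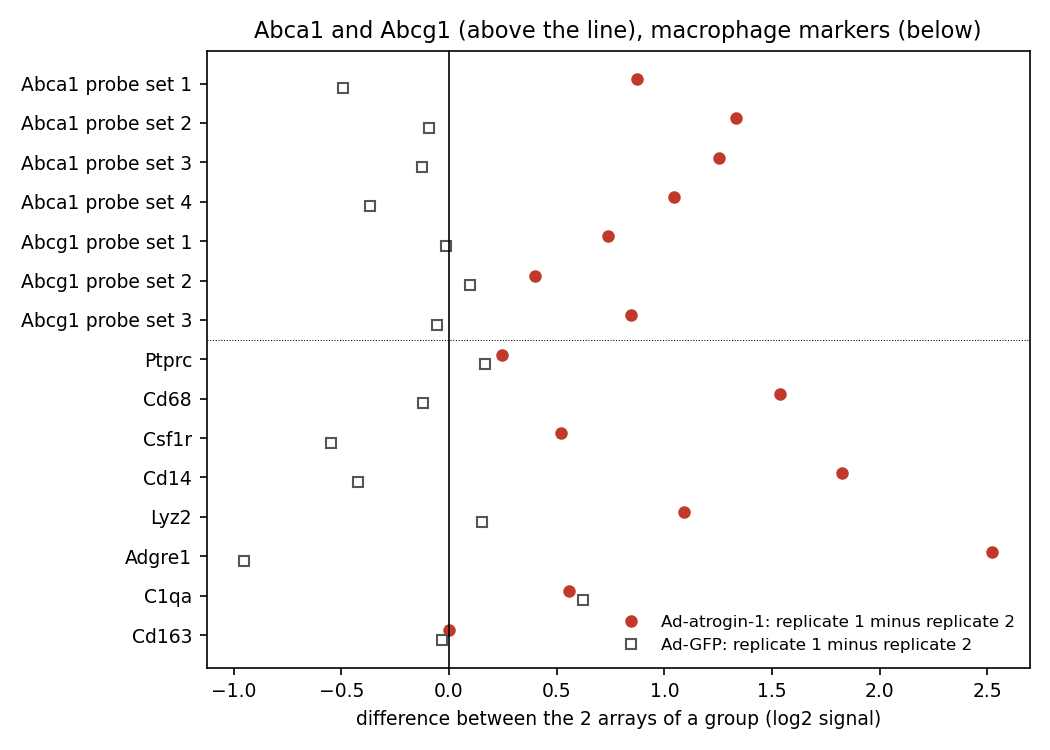
Difference between replicate 1 and replicate 2 (horizontal axis, log2 signal) for every probe set of Abca1 and Abcg1 and for 8 macrophage and leukocyte markers, with Ad-atrogin-1 as red circles and Ad-GFP as grey squares. All 7 transporter probe sets are above 0 in Ad-atrogin-1 (0.40 to 1.33), as are 7 of the 8 markers. The 9 cardiomyocyte markers, which are not drawn, were all above 0 in Ad-atrogin-1 too.

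Within subfamily G, Abcg2, the breast cancer resistance protein, was lower by 0.22 on the log2 scale (4.61 and 4.73 in Ad-atrogin-1, 4.91 and 4.88 in Ad-GFP) and was chosen after its values were seen, as a major drug exporter. It did not pass (adjusted p = 0.492, limma). Abcg3l1 gave 3.88 and 3.88 in Ad-atrogin-1 and 4.38 and 4.20 in Ad-GFP, at the lower quartile of the array, with a log2 fold change of -0.41 (adjusted p = 0.261).

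The peroxisomal and lysosomal transporters of subfamily D overlapped or differed little. Abcd3, the main membrane protein of peroxisomes, gave 7.44 and 7.11 in Ad-atrogin-1 and 7.32 and 7.18 in Ad-GFP, and Abcd4, needed to release cobalamin from lysosomes, gave 6.05 and 6.02 in Ad-atrogin-1 and 6.26 and 6.10 in Ad-GFP. The members that act on ribosomes were bright and close between groups. Abce1, which splits ribosomes for reuse, gave 9.54 and 9.76 in Ad-atrogin-1 and 9.63 and 9.54 in Ad-GFP, and Abcf1, which helps start translation, gave 9.53 and 9.50 in Ad-atrogin-1 and 9.44 and 9.63 in Ad-GFP. Abcf2 gave 8.24 and 8.37 in Ad-atrogin-1 and 8.60 and 8.46 in Ad-GFP, at a log2 fold change of -0.23 (adjusted p = 0.513). The 95% intervals of Abce1 (-0.27 to 0.39) and Abcf1 (-0.33 to 0.29) leave room only for changes well under 2-fold.

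The genes around these transporters were read from 10 lists of partners, substrates' enzymes and regulators, in which limma called 0 of 109 genes in either direction, with 18 at an unadjusted p under 0.05. At an unadjusted p under 0.05, 5 of the 12 genes of prostaglandin synthesis, uptake and reception passed, where 13.4% of all genes did. MRP4 carries prostaglandins out of cells, and this list had a median log2 fold change of -0.25. Ptgs2, the inducible cyclooxygenase, gave 8.67 and 8.39 in Ad-atrogin-1 and 9.83 and 10.78 in Ad-GFP, a log2 fold change of -1.78 (SE 0.31, adjusted p = 0.0953). Ptges3, a co-chaperone with prostaglandin E synthase activity, gave 11.64 and 11.71 in Ad-atrogin-1 and 11.62 and 11.68 in Ad-GFP. Others singled out by their values were Ptges, the inducible prostaglandin E synthase (-1.67 on the log2 scale, adjusted p = 0.305), Ptgis, prostacyclin synthase (-1.08, adjusted p = 0.227), and Slco2a1, the prostaglandin uptake transporter (-0.97, adjusted p = 0.215). The 2 Ad-GFP arrays of Ptges, at 7.42 and 9.19, lay further apart than the group means. Those of Ptgis were at 10.03 and 9.12. The study lists Ptgs2, Ptges, Ptgis and Ptger3, another gene of this list (-0.58, adjusted p = 0.258), among genes it chose on these arrays, so neither their direction nor the count over the list is independent evidence.

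For the cyclic nucleotide substrates of MRP4, the 22 measured adenylyl cyclases and phosphodiesterases had a median log2 fold change of -0.084, and 2 reached an unadjusted p under 0.05, where 13.4% of all genes did. Pde4b, which degrades cyclic AMP, gave 8.17 and 7.67 in Ad-atrogin-1 and 8.73 and 9.09 in Ad-GFP, a log2 fold change of -0.99 (SE 0.21, adjusted p = 0.148). The other of the 2, Pde3b, which also degrades cyclic AMP, ran the opposite way, with 5.52 and 5.68 in Ad-atrogin-1 and 5.35 and 5.00 in Ad-GFP (0.43 on the log2 scale, adjusted p = 0.344). Pde2a, a phosphodiesterase that cyclic GMP stimulates, gave 7.88 and 7.97 in Ad-atrogin-1 and 7.10 and 8.14 in Ad-GFP, with overlap.

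The 14 measured genes of mitochondrial iron-sulfur cluster and heme assembly, the setting of Abcb6, Abcb8 and Abcb10, had a median of 0.18. At an unadjusted p under 0.05 in limma there were 4 genes, 3 higher and 1 lower, where 13.4% of all genes reached that level. The lower 1 was Slc25a37, at -0.42 on the log2 scale. Glrx5, an iron-sulfur carrier, gave 10.97 and 10.87 in Ad-atrogin-1 and 10.82 and 10.50 in Ad-GFP (0.26 on the log2 scale, adjusted p = 0.531), and Isca1, an assembly factor, gave 9.72 and 9.58 in Ad-atrogin-1 and 9.62 and 9.62 in Ad-GFP, with overlap. Hscb, the co-chaperone of cluster transfer, was chosen after its values were seen and gave 7.55 and 7.30 in Ad-atrogin-1 and 6.89 and 6.66 in Ad-GFP, a log2 fold change of 0.65 (SE 0.15, adjusted p = 0.174).

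The 11 measured genes of LXR and sterol handling had a median of 0.032, with Npc2, a lysosomal cholesterol carrier, at 0.032 and Lpcat3, a phospholipid remodelling enzyme, at -0.27 on the log2 scale. The 9 nuclear receptors and other sensors of foreign compounds had a median of 0.079. Nfe2l2, which controls antioxidant genes and is known to induce MRP genes, was at -0.029 and its inhibitor Keap1 at 0.19. At an unadjusted p under 0.05 in limma there were 2 of these 9, both higher, where 13.4% of all genes reached that level. They were Ahr at 0.42 (adjusted p = 0.268) and Hnf4a at 0.33 (adjusted p = 0.316), with Hnf4a under the lower quartile on 3 arrays. The 17 organic anion and nucleoside carriers had a median of -0.0090, with Slco3a1 at -0.68 (adjusted p = 0.335) and Slco5a1 at 0.21. The 10 peroxisomal genes had a median of -0.029, with Pex13, a part of the import pore, at -0.078 and Acsl1, an acyl-CoA synthetase, at 0.13. The 9 genes of translation had a median of 0.021, with the initiation factor gene Eif2s2 at 0.27 and the release factor gene Gspt1 at -0.12. The list of ABC genes outside the symbol rule also holds Tapbp, which is not itself a transporter. Its 4 measured genes had a median of -0.22 (1 above 0 and 3 below). They include Tap1, a peptide pump of antigen presentation, at 0.081 (adjusted p = 0.884), and its partner in the pump, Tap2, at -0.35 (adjusted p = 0.558). Tapbp, which binds that pump, was at -0.48 (adjusted p = 0.247), and Cftr was at -0.096, under the lower quartile on all 4 arrays.

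**Figure D4:**
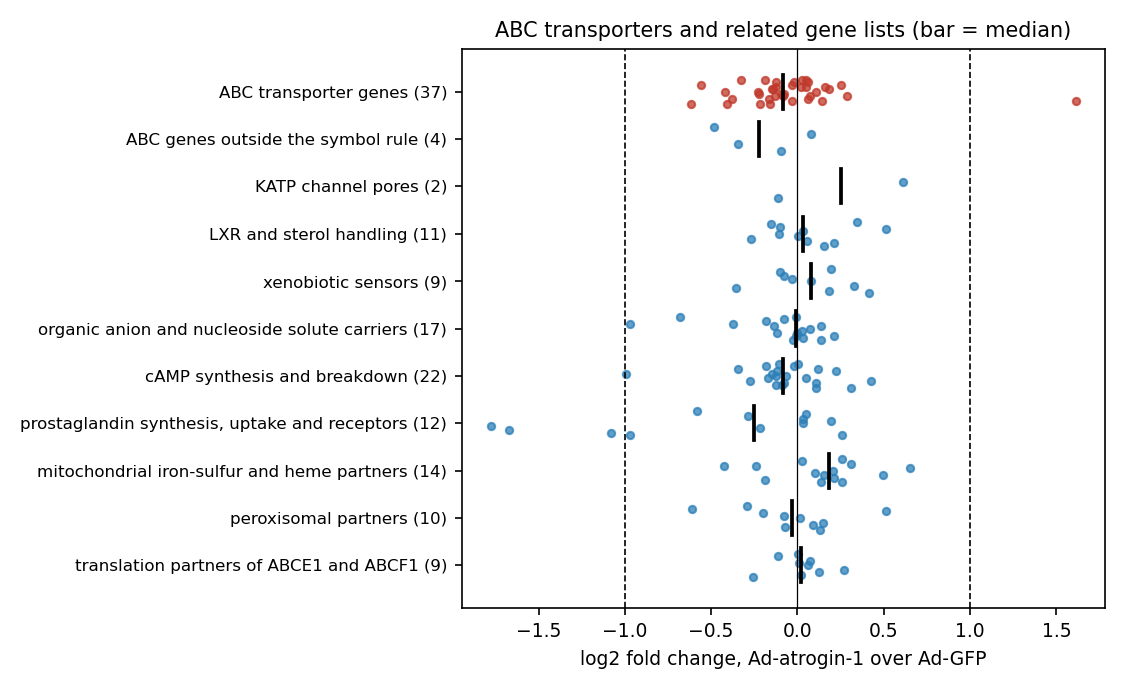
Log2 fold change (horizontal axis, Ad-atrogin-1 over Ad-GFP) of each measured gene (points) and the median (black bar) for the ABC transporters in red and 10 related lists in blue, with the number of genes in brackets and dashed lines at a 2-fold change. Abcc4 is the red point beyond 2-fold at 1.61, and the points below -1 are Ptgs2, Ptges and Ptgis, which were not called.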

How the data were processed

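Log2 signals were made and deposited by the authors, who per the methods used RMA in GeneSpring GX on the scanner files of 4 arrays, 1 per sample. They were used as deposited, with no filter on low signal. Control probe sets (57) were left out. Probe sets were paired with genes through the array's annotation table (20826 with 1 gene, 436 with several, 9780 with none), and all 40 members matched by gene ID a RefSeq gene of the same symbol. All 31042 remaining probe sets entered 1 two-sided limma fit (version 3.58.1 under R 4.3.3, functions lmFit and eBayes, 2 residual and 3.65 prior degrees of freedom). Each gene was represented by its brightest probe set over the 4 arrays, with Benjamini-Hochberg adjustment over 14217 genes. Calls take an adjusted p under 0.05 and 2-fold. The methods' t-test is only a name for an equal-variance test, since the methods name none for the arrays. The fit was tested on simulated data. Members, lists and alternatives were chosen with earlier results of these data known. Genes were named by rule: Abcc4, subfamily C, any called member, the brightest and the most changed member of each other subfamily, members changed 1.5-fold without overlap, and called or the 2 brightest genes of each list.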

Additional observations from a re-analysis of the deposited data

How the results depend on the processing

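The count of members called higher (1, Abcc4) was 0 for genes and for probe sets with the methods' t-test after adjustment, with the replicate number as a block and with each array left out (0 to 0). The log2 fold change of Abcc4 stayed at 1.61 but its adjusted p was 0.422 with the methods' t-test and 0.144 with the block, and the value ran from 1.47 to 1.76 with an array left out. The adjusted p of Abcc4 lay between 0.0179 and 0.0270 with arrays centred, quantile normalized again, restricted to the brightest 60% of probe sets, fitted with another prior, averaged over probe sets of a gene, or in a refit on 1 probe set per gene, which was added after seeing the data. The replicate numbers are not known to pair the arrays (correlation of deviations 0.043). The smallest excess of Abcc4 over a relative ran from 0.97 to 1.36 with an array left out. Among the other 36 members, 23 values in 17 members changed direction with an array left out, and 1 value turned under another alternative. Another prior, the t-test, other thresholds, the block and the refit reuse the log2 fold changes of the main fit. The restriction to the brightest 60% of probe sets reuses them too, for the members it keeps. No value could turn under those alternatives. Abca8 was at 0.025 with the mean of its probe sets. With an array left out the log2 fold change ran from -0.60 to 0.28 for Abca1, -0.26 to 0.012 for Abca8, -0.25 to 0.19 for Abcb10, -0.16 to 0.096 for Abcb11, -0.20 to 0.044 for Abcb1a, -0.43 to 0.052 for Abcb9, -0.10 to 0.23 for Abcc2, -0.083 to 0.30 for Abcc3, -0.28 to 0.090 for Abcc6, -0.077 to 0.40 for Abcc9, -0.28 to 0.020 for Abcd2, -0.14 to 0.19 for Abcd3, -0.049 to 0.17 for Abce1, -0.11 to 0.072 for Abcf1, -0.12 to 0.62 for Abcg1, -0.0091 to 0.050 for Abcg4 and -0.061 to 0.20 for Abcg5. The related lists had 0 called genes with arrays centred, quantile normalized again or restricted to the brightest 60% of probe sets. The block, the mean of probe sets and the refit also gave 0. Other thresholds, another prior and the methods' t-test were not run on these lists. In limma Ptgs2, Ptges and Ptgis were more than 2-fold lower at an unadjusted p of 0.0016, 0.029 and 0.012. Leaving out an array leaves 1 array in its group, which is assumed to vary like the other group, and the cause of the turned values was not tested. There are 6 members that lie under the lower quartile on all arrays, where low signal limits what a fold change can show.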

Other observations

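Members that sit close together on a chromosome gave these values, chosen after they were seen and with no test. Abcb4 and the probe set shared by Abcb1a and Abcb1b, which lie side by side on chromosome 4, were at -0.61 and -0.51 on the log2 scale, neither called. Abcg5 and Abcg8, which pair to form a sterol pump and are neighbours on chromosome 6, were at 0.071 and 0.048, with Abcg8 under the lower quartile on all 4 arrays (3.17 and 3.22 in Ad-atrogin-1, 3.12 and 3.17 in Ad-GFP). Abcf3 and Abcc5, with 4 protein-coding genes between them on chromosome 11, were at 0.15 and -0.56. Abcf3 was measured by 2 probe sets, at 8.20 and 8.05 in Ad-atrogin-1 and 7.97 and 7.99 in Ad-GFP, and at 7.10 and 7.26 in Ad-atrogin-1 and 7.02 and 6.92 in Ad-GFP.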
